A study of Homo sapiens with 4 samples.

Results

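The MYC, MAX and MXD network is a set of 9 genes for transcription factors of the basic helix-loop-helix leucine zipper class, taken by name as MYC, MAX, MXI1, MXD1, MXD3, MXD4, MGA, MNT and MLX. Every m6A peak that the deposited lists give to these genes was included, which made 29 of the 24626 peaks of the shALKBH5 list and 29 of the 22448 peaks of the shNC list. The cells were RPMI-8226, a human line established from multiple myeloma, a cancer of plasma cells. Lentivirus brought in a hairpin against ALKBH5, the enzyme that takes N6-methyladenosine (m6A) off RNA, or the hairpin named shNC. The labels do not say how many hairpins or clones were used. Poly(A) RNA of each condition gave 1 library enriched with an antibody against m6A (the IP) and 1 library without enrichment (the input), so there were 4 libraries and no replicates. No test between the conditions was possible, and every difference below is one between 2 pairs of libraries.

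MYC and MAX bind DNA together at E-boxes, the best known of which reads CACGTG, and MYC then activates genes of growth, ribosome production and metabolism. MXD1, MXI1, MXD3, MXD4, MNT and MGA compete for MAX and repress such genes through corepressors, and MLX is a MAX-like protein that also pairs with MXD1, MXD4 and MNT. MYC activity is a common feature of myeloma, and the MYC mRNA is short-lived and bound by m6A readers of the IGF2BP family.

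Each peak carries the fold of IP over input and the log10 p that the authors' tables give it, and both are used here to describe peaks within their own list. Across all peaks, the median fold was 6.64 in the shALKBH5 list and 6.54 in the shNC list. The sources used here do not give how IP was scaled to input, and the lists differ in length, so folds and ranks set side by side do not measure a change in methylation. A peak of a list had a partner when it shared at least 1 base with a peak of the other list. The tables hold no read counts, so the depth of the libraries is unknown. Of 10 plasma cell markers, SDC1, CD38, IRF4, PRDM1, XBP1 and MZB1 had peaks in both lists and the other 4 had none. Markers of other cell types mostly had none, with peaks at 1 of 8 T and NK cell genes, 2 of 7 myeloid genes and 2 of 7 stromal genes. A gene without a peak may still be expressed. ALKBH5 itself had 3 peaks in each list, all with a partner, and these hold no expression level, so the knockdown was not checked here.

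Of the 9 genes, 8 had peaks in both lists and MXI1 had none in either. Among all 12779 genes with any peak, 83.0% had peaks in both lists. That share leaves out genes that, like MXI1, had no peak. In each list 27 of the 29 network peaks had a partner and 2 had none, against 19.8% without a partner over the whole shALKBH5 list and 12.6% over the whole shNC list. The 2 shALKBH5 peaks without a partner lay in MYC and MNT, and the 2 shNC peaks without a partner lay in MGA and MXD3. Network peaks had a median fold of 4.52 in the shALKBH5 list and 3.94 in the shNC list, and 8 of 29 shALKBH5 peaks and 5 of 29 shNC peaks lay above the median of their list. Their median log10 p was -21.4 in the shALKBH5 list, where all peaks had -15.3, and -11.8 in the shNC list, where all peaks had -15.8.

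**Figure D1:**
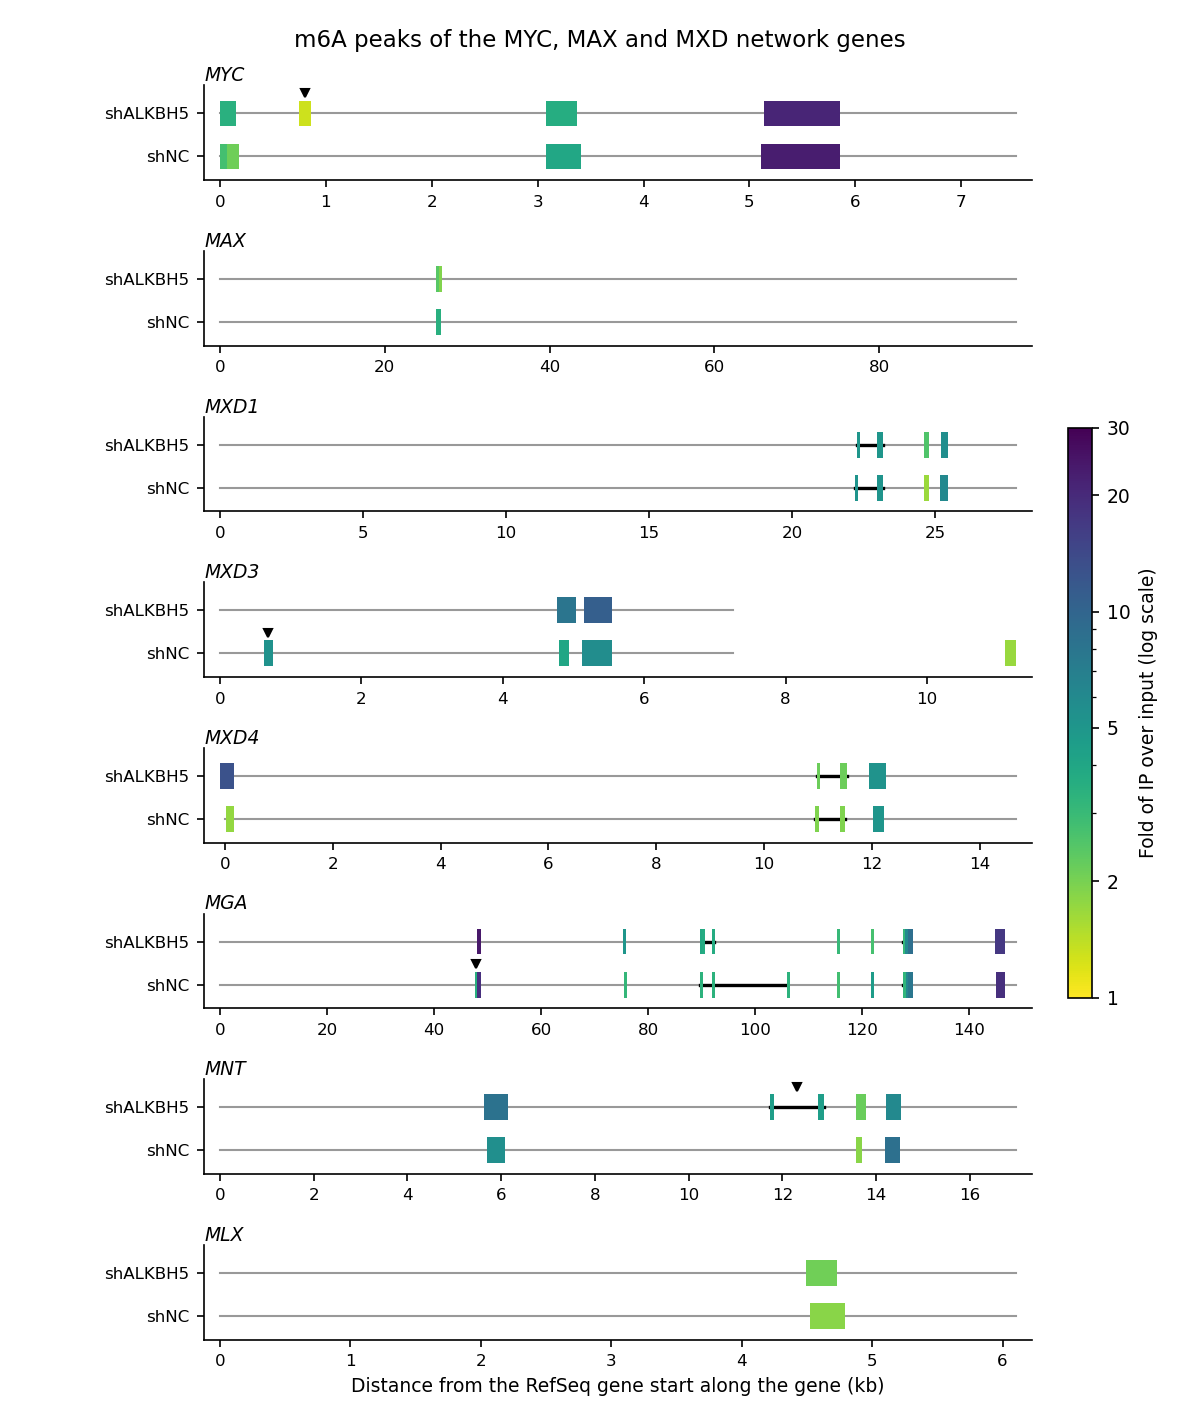
Positions of all network peaks along each gene (x axis, distance from the RefSeq gene start in kb) in the shALKBH5 list (upper row) and the shNC list (lower row), with colour for the fold of IP over input on a log scale. Black lines join blocks of a spliced peak, triangles mark the 4 peaks without a partner, short blocks are drawn at a minimum width, and MXI1 had no peak. Most peaks stand at the same place in both rows, and the darkest are the peak near the end of MYC and the first and last shared peaks of MGA.

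MYC (ENSG00000136997, chromosome 8, RefSeq span 127735434 to 127742951 on GRCh38) encodes the activator of the network, and its RNA carried 4 peaks in each list. The peak nearest the gene end lay at 127740573 to 127741285 with a fold of 21.1 in the shALKBH5 list and at 127740543 to 127741285 with a fold of 22.9 in the shNC list. Its log10 p was -9990 in the shALKBH5 list and -9930 in the shNC list, which ranked it 3 of 24626 and 4 of 22448 peaks by p. By fold the same peak ranked 1917 in the shALKBH5 list and 1509 in the shNC list. The MYC peak was thus near the top of both lists by p and lower in them by fold. A peak's p depends on the number of reads as well as on the fold, so it is not a measure of the methylated share of the RNA.

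A second strong MYC peak began at 127738513 in both lists and ended at 127738810 in the shALKBH5 list and at 127738840 in the shNC list. It had a fold of 3.66 (log10 p -1520) in the shALKBH5 list, and a fold of 3.94 (log10 p -1860) in the shNC list. This peak ranked 76 by p in the shALKBH5 list and 56 in the shNC list, although its fold was below the median of all peaks in both. At the first base of the gene, a weak peak began at 127735434 in both lists and had a fold of 3.48 (log10 p -5.55) in the shALKBH5 list, against 2.75 (log10 p -7.58) in the shNC list. The shNC list gave that place a second MYC peak, 127735502 to 127735616, with a fold of 2.12, which shared 111 bases with the first. The 4 shNC peaks of MYC therefore stand for 3 separate places.

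The fourth shALKBH5 peak of MYC, at 127736177 to 127736295, had no shNC partner. It began 743 bp from the gene start, with a fold of 1.29 (log10 p -10.5). That fold stood at percentile 0.215 of the list, so it was among the lowest that the authors kept. In the same quartile of the shALKBH5 list by p, the third from the strongest, 21.6% of peaks had no partner. Genes like MYC were sought among 200 genes that had 4 peaks in each list, every one with a partner, which MYC itself lacked for this 1 peak. Nearness to MYC was taken by the rank of a gene's highest fold in each list, which need not come from the same place. The nearest were CCR2 (22.2 in the shALKBH5 list and 24.1 in the shNC list), AC073111.5 (20.4 with shALKBH5 and 20.7 with shNC) and ZNF14 (23.4 with shALKBH5 and 21.6 with shNC). These folds are close to those of MYC by that choice.

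MAX (ENSG00000125952, chromosome 14, minus strand, RefSeq span 65006101 to 65102695) encodes the obligate partner of MYC and of the MXD proteins, and its RNA was marked at 1 place. The shALKBH5 list had 2 MAX peaks, at 65075971 to 65076180 with a fold of 1.90 (log10 p -16) and at 65076300 to 65076479 with a fold of 2.42 (log10 p -29). The shNC list had 1 MAX peak of 599 bases around both, at 65075911 to 65076509, with a fold of 3.53 (log10 p -54.9). The same stretch was thus listed in 2 parts, with 119 bases between them, with shALKBH5 and whole with shNC. All MAX folds were below the median of their list. Of all shALKBH5 peaks, 4.08% overlapped 2 or more shNC peaks of the same gene, and 4.81% of shNC peaks did the same with shALKBH5 peaks. The MAX peaks lay inside the RefSeq span, 69870 bp from its end in the shALKBH5 list and 69810 bp in the shNC list. RefSeq gives MAX several transcripts and the exons were not used here, so the end of the transcript that carried them is not known.

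**Figure D2:**
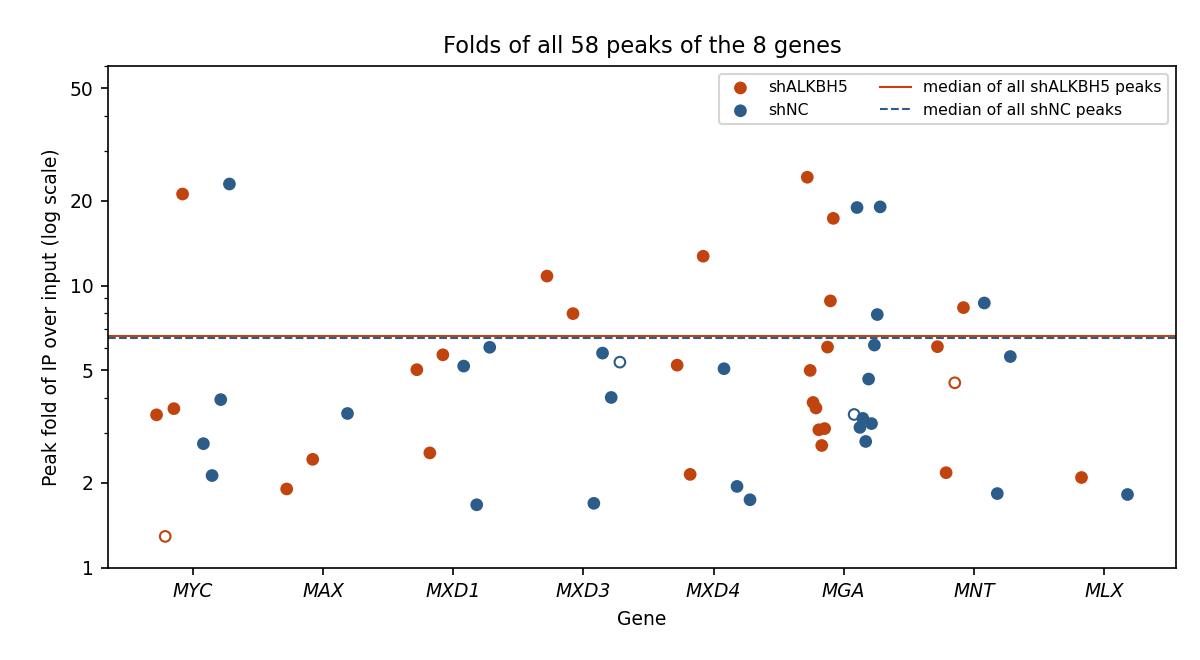
Fold of IP over input (y axis, log scale) of every network peak by gene, with 29 shALKBH5 peaks and 29 shNC peaks as points in order of position, open where a peak had no partner. Horizontal lines give the median of all peaks in each list, 6.64 and 6.54, and most points lie below them.

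MXD1 (ENSG00000059728, chromosome 2, RefSeq span 69915109 to 69942945), which encodes a repressor that replaces MYC on MAX as cells differentiate, had 3 peaks in each list and each had a partner. All lay in the last part of the gene. The first was spliced, with blocks that met at the same junction in both lists, from 69937394 to 69938097. It had a fold of 5.03 in the shALKBH5 list and 5.18 in the shNC list. The second MXD1 peak, ending at 69939890 in both lists, had a fold of 2.55 (log10 p -7.72) in the shALKBH5 list, against 1.67 (log10 p -2.78) in the shNC list. The third had a fold of 5.68 (log10 p -36.9) in the shALKBH5 list, against 6.04 (log10 p -29.1) in the shNC list. The order of the 3 peaks by fold was the same in both lists. MXI1 (chromosome 10, RefSeq span 110207605 to 110287365), a closely related repressor, had no peak in either list under its name or anywhere in its RefSeq span.

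MXD3 (ENSG00000213347, chromosome 5, minus strand, RefSeq span 177305499 to 177312752), whose mouse counterpart is expressed in S phase of dividing progenitors, had 2 peaks in the shALKBH5 list and 4 in the shNC list. The strongest began at 177307210 in both lists and had a fold of 10.8 (log10 p -82.6) in the shALKBH5 list, against 5.76 (log10 p -33.8) in the shNC list. Beside it, a peak had a fold of 7.95 (log10 p -21.4) in the shALKBH5 list, at 177307720 to 177307989, against 4.01 (log10 p -6.06) in the shNC list, at 177307810 to 177307959. Both MXD3 peaks were above the list median by fold with shALKBH5 and below it with shNC. The third shNC peak, at 177312006 to 177312126, had no partner, with a fold of 5.35 (log10 p -3.56). It was in the weakest quartile of the shNC list by p, where 38.7% of all peaks had no partner. The fourth, at 177301491 to 177301641, lay outside the RefSeq span of MXD3 and shared 145 of its 151 bases with an shNC peak of RAB24 on the same strand. Its shALKBH5 partner was a RAB24 peak as well, so its assignment to MXD3 is uncertain.

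MXD4 (ENSG00000123933, chromosome 4, minus strand, RefSeq span 2247432 to 2262109), another MAX-binding repressor, had 3 peaks in each list, all with a partner. The peak at the gene start had the largest gap in fold between the lists among the network peaks. It lay at 2261935 to 2262204 with a fold of 12.7 (log10 p -10.3) in the shALKBH5 list, and at 2261935 to 2262085 with a fold of 1.74 (log10 p -3.62) in the shNC list. Within their lists these folds stood at percentile 75.4 with shALKBH5 and 3.74 with shNC. By p, the shALKBH5 peak was in the third quartile from the strongest and the shNC peak in the weakest. The folds were also taken over unlike stretches, of 270 bases with shALKBH5 and 151 with shNC. The shALKBH5 peak ran 95 bases past the RefSeq start, and the shNC peak ended 24 bp short of it.

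Toward the MXD4 gene end, a spliced peak with the same junction in both lists, from 2250701 to 2251084, had a fold of 2.14 (log10 p -24.5) in the shALKBH5 list, against 1.94 (log10 p -11.8) in the shNC list. The last peak had a fold of 5.22 (log10 p -32.2) in the shALKBH5 list, against 5.07 (log10 p -13.7) in the shNC list. These folds lay close together while those of the start peak did not. Among all placed peaks, 14.5% of the shALKBH5 list and 11.4% of the shNC list lay at a gene start, that is upstream of it or less than 500 bp downstream. In the network, 2 peaks of the shALKBH5 list and 3 of the shNC list did, and all belonged to MXD4 and MYC.

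The sequence upstream of the MXD4 start is shown because a peak reached into it. The E-boxes of MNT and MLX are shown because, among network genes with a promoter window, only these and MXD4 had CACGTG in it. Sequences are from the RefSeq promoter table of GRCh38.p14, given 5′ to 3′ on the strand of the gene, with CACGTG in capitals: chr4:2262110-2262359 (minus strand) for MXD4, chr17:2401236-2401265 (minus strand) for MNT and chr17:42567038-42567067 (plus strand) for MLX.
MXD4: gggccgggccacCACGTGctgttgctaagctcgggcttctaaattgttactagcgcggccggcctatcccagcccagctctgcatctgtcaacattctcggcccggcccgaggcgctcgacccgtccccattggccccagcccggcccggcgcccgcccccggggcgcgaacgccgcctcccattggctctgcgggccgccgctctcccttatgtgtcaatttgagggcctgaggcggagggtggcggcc
MNT: ccctgcccgggcCACGTGtgcgcgcgccgg
MLX: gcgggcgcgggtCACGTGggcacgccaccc
The last 95 bases of the MXD4 sequence lie in the shALKBH5 peak. A promoter window holds 250 bases before and 50 bases after a gene start. The table had windows for 8 of the 9 network genes and none for MYC, whose promoter was thus not examined. Of these 8 genes, 3 (37.5%) had CACGTG, which reads the same on both strands, in a window. Of all 27305 genes with a window, 8.77% did. The motif began 238 bp before the start of MXD4, 193 bp before that of MNT and 50 bp before that of MLX. Such a match shows letters and not binding, and nothing in these data measures binding of MYC or MAX.

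MNT (ENSG00000070444, chromosome 17, minus strand, RefSeq span 2384073 to 2401060), a broadly expressed repressor that opposes MYC, had 4 peaks in the shALKBH5 list and 3 in the shNC list. The peak near the gene end lay at 2386519 to 2386849 with a fold of 6.07 in the shALKBH5 list and at 2386549 to 2386879 with a fold of 8.67 in the shNC list. Its log10 p was nearly the same, with -53.5 in the shALKBH5 list and -53.8 in the shNC list. The gene AC006435.1 on the opposite strand had a peak over 146 of its bases in the shALKBH5 list and over 116 in the shNC list. Whether the reads keep strand is not stated, so the 2 genes cannot be told apart there.

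Farther upstream in MNT, a peak that ended at 2387479 in both lists had a fold of 2.17 in the shALKBH5 list and 1.83 in the shNC list. The peak nearest the start lay at 2394917 to 2395426 with a fold of 8.35 (log10 p -39.6) in the shALKBH5 list, and at 2394977 to 2395366 with a fold of 5.60 (log10 p -21.2) in the shNC list. The order of these 2 strong MNT peaks by fold thus differed between the lists. The fourth shALKBH5 peak had no partner. It was spliced, with blocks of 133 and 48 bases between 2388166 and 2389313, and had a fold of 4.52 (log10 p -3.54). It was in the weakest quartile of the shALKBH5 list by p, where 54.6% of all peaks had no partner.

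MGA (ENSG00000174197, chromosome 15, RefSeq span 41621224 to 41769940) encodes a very large protein that joins a T-box to the MAX-binding domain and brings MAX into the PRC1.6 repressor complex. It had the most peaks of the network, with 10 in each list, and 99.7% of the genes in either list had fewer. The MGA peaks covered 5072 bases in the shALKBH5 list and 5372 in the shNC list. The last peak was 1739 bases long in both lists. It lay at 41766069 to 41767807 with a fold of 17.3 (log10 p -139) in the shALKBH5 list, and at 41766099 to 41767837 with a fold of 19.0 (log10 p -166) in the shNC list. The other strong MGA peak ended at 41669933 in both lists and had a fold of 24.2 (log10 p -78.2) in the shALKBH5 list, against 18.9 (log10 p -56.7) in the shNC list. No other peak of the network but the main MYC peak had a fold this high in both lists.

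The remaining 8 MGA peaks of each list had folds from 2.71 to 8.82 in the shALKBH5 list and from 2.80 to 7.89 in the shNC list. The spliced peak at 41748754 to 41749117 had the same borders and blocks in both lists, with folds of 3.11 in the shALKBH5 list and 3.24 in the shNC list. As at MAX, a stretch was listed in parts in the shALKBH5 list and whole in the shNC list. The shALKBH5 list had a peak of 271 bases with a fold of 3.85 and a spliced peak of 390 bases with a fold of 3.68 there. The shNC list had 1 peak of 3 blocks, from 41710835 to 41727218, with 900 bases and a fold of 3.38. Both shALKBH5 peaks lay in its first 2 blocks, and none lay over its last block of 39 bases. The shNC peak of MGA without a partner, at 41668885 to 41669064, had a fold of 3.49 (log10 p -4.38), and lay 179 bases before the strong peak that both lists shared. It was in the weakest quartile of the shNC list by p, where 38.7% of all peaks had no partner.

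MLX (ENSG00000108788, chromosome 17, RefSeq span 42567100 to 42573203), the MAX-like partner of the glucose-sensing factors MLXIP and MLXIPL, had 1 peak in each list. It lay at 42571590 to 42571830 with a fold of 2.10 (log10 p -28) in the shALKBH5 list, and at 42571620 to 42571890 with a fold of 1.82 (log10 p -25.5) in the shNC list. These folds stood at percentile 8.12 of the shALKBH5 list and 4.87 of the shNC list. As at MAX, a low fold went with a log10 p stronger than the median of the list.

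The last peak of a network gene lay at a similar distance from the gene end in nearly all of them, a pattern noticed after the values were seen. In 7 of the 8 genes with peaks, all but MAX, the last peak within the gene ended 1373 to 2446 bp from the RefSeq gene end in the shALKBH5 list and 1313 to 2476 bp in the shNC list. Among all genes with a placed peak, 19.5% of the shALKBH5 list and 20.1% of the shNC list had their last peak at least 1000 and less than 2500 bp from the end. Another 41.2% with shALKBH5 and 42.0% with shNC had it less than 1000 bp from the end, which was true of 0 of the 8 network genes. The window of 1000 to 2500 bp was set after the values were seen, so the 7 genes inside it do not test the pattern. The median distance over all genes, 1526 bp with shALKBH5 and 1462 bp with shNC, lay in the same window. Counted over peaks, 22.1% of placed shALKBH5 peaks and 23.0% of placed shNC peaks lay at the gene end, that is within 1000 bp of it and not at the start. In either list 0 of 29 network peaks did, and 1 of the 29 in the shNC list, the MXD3 peak outside the gene span, was not placed. The distances were 1373 bp for MLX, 1666 bp for MYC, 1711 bp for MXD3, 2133 bp for MGA, 2366 bp for MXD1, 2422 bp for MXD4 and 2446 bp for MNT in the shALKBH5 list. In the shNC list they differed from these by at most 60 bp. Where the coding sequence of each gene stops was not used here, so these distances are not distances from a stop codon.

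**Figure D3:**
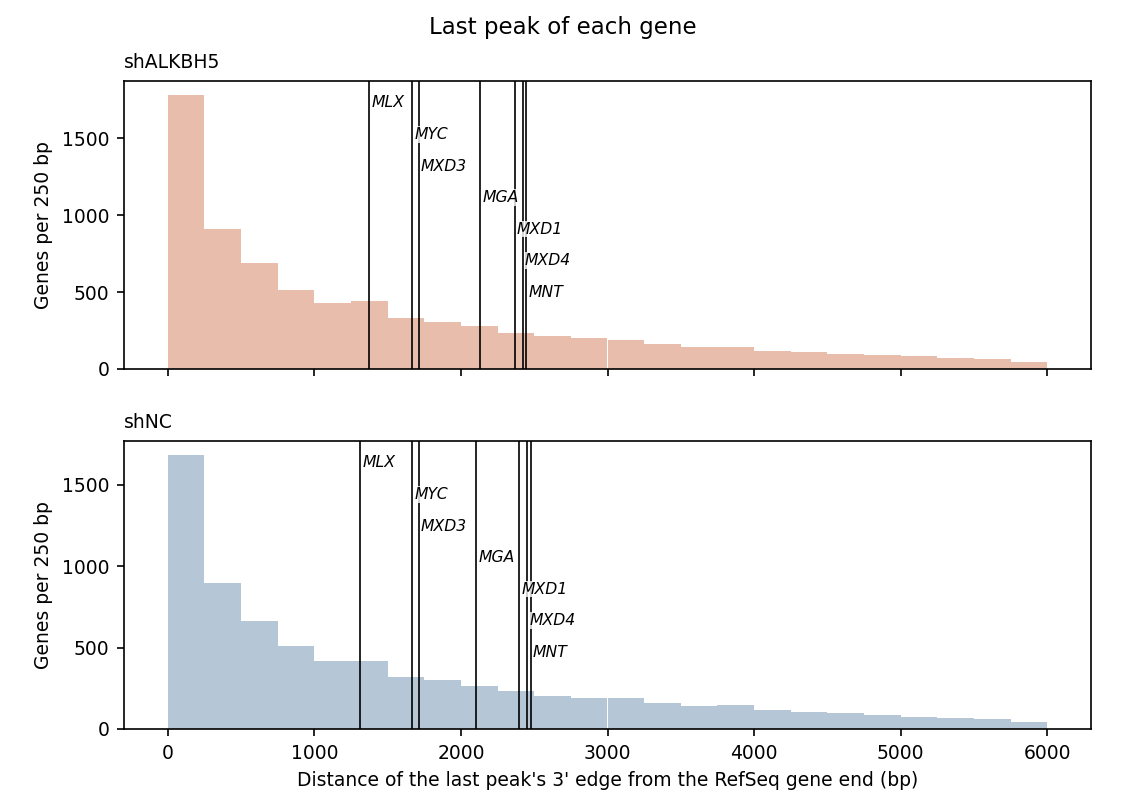
Number of genes per 250 bp (y axis) by the distance of the last peak's 3′ edge from the RefSeq gene end (x axis, bp) in the shALKBH5 list (above) and the shNC list (below). Vertical lines mark 7 network genes between 1313 and 2476 bp, MAX lies outside the plotted range, and genes whose last peak ended beyond the gene end or 6000 bp or more away are not drawn.

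The borders of paired peaks could be compared directly. Of 21 network pairs in which each peak had the other as its sole partner, 1 had identical borders, 5 shared the left border and 7 shared the right border. In all 21 pairs, the shifts of both borders were multiples of 30 bases within 1 base. Over all 14575 such pairs, 90.7% had shifts of that kind, so differences of 30 or 60 bases are the smallest steps that these borders usually show.

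The genes that work with the network were described through 6 lists with 88 genes, and 70 of these genes had peaks in both peak lists. The shALKBH5 list alone held 4 more and the shNC list alone 2, which left 12 without any peak. Over all genes with a peak, 11.5% stood in the shALKBH5 list alone and 5.50% in the shNC list alone. These shares leave out genes without any peak, so they stand beside the 76 listed genes that had one and not beside all 88. The share of expressed genes that carry a peak is unknown here. Whether 76 of 88 is a high number was therefore not tested. Of the other MYC family genes and MLX partners, MYCN, MYCL and MLXIP had peaks in both lists and MLXIPL in neither. For the genes of these lists, the values are each gene's highest fold in a list, and they come from overlapping peaks unless other places are named. The highest folds were at MYCN, with 18.1 in the shALKBH5 list and 16.9 in the shNC list, and at MYCL, with 17.2 in the shALKBH5 list and 13.2 in the shNC list. The peak of MYCN rested on a log10 p of -6.06 with shALKBH5 and -4.26 with shNC, far weaker than the main peak of MYC. Peaks of these genes had a median fold of 3.48 in the shALKBH5 list and 3.53 in the shNC list.

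All 12 genes of the SIN3 and NCOR corepressors used by MXD proteins had a peak, and 11 had peaks with either hairpin. The scaffold gene SIN3A led with a fold of 18.1 in the shALKBH5 list and 23.4 in the shNC list, followed by ARID4B with 17.3 in the shALKBH5 list and 17.5 in the shNC list. The deacetylase gene HDAC2 had a peak only in the shNC list, with a fold of 1.95 (log10 p -16.3), while HDAC1 had peaks in both. All 10 genes of the PRC1.6 complex of MGA had a peak, and 8 had peaks with either hairpin. Without a share for expressed genes, the full counts of both complexes have no baseline. CBX3 had a peak only in the shALKBH5 list, at its gene start with a fold of 3.03 (log10 p -10.1). RNF2 had one only in the shNC list, with a fold of 2.77 (log10 p -4.53). The RNF2 peak was in the weakest quartile of the shNC list by p, where 38.7% of all peaks had no partner. RING1 had the highest fold in this group, with 17.3 in the shALKBH5 list and 12.2 in the shNC list. YAF2 had its highest fold, 12.7, at an shALKBH5 peak without a partner (log10 p -5.81), and at the 1 place that both lists shared it had 10.4 with shALKBH5 and 3.48 with shNC. L3MBTL2 had 9.49 with shALKBH5 and 10.2 with shNC. The median fold was 3.92 in the shALKBH5 list and 3.38 in the shNC list for the corepressors. For PRC1.6 it was 5.86 in the shALKBH5 list and 3.76 in the shNC list.

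Of 16 MYC cofactor genes, 13 had peaks in both lists and RUVBL2, an ATPase of chromatin remodelling complexes, only in the shALKBH5 list, at its gene start with a fold of 6.33 (log10 p -4.85). The RUVBL2 peak was in the weakest quartile of the shALKBH5 list by p, where 54.6% of all peaks had no partner. Among the cofactors was TRRAP, the scaffold of histone acetyltransferase complexes that MYC recruits. Its highest shALKBH5 fold of 32.6 (log10 p -17.3) was at a place where the shNC fold was 7.67 (log10 p -7.25). Its highest shNC fold of 13.4 belonged to another, weak peak without a partner (log10 p -3.25). The TRRAP peak strongest by p in both lists had 9.43 with shALKBH5 and 7.46 with shNC. The acetyltransferase gene EP300 had 29.9 with shALKBH5 and 13.0 with shNC at 1 place, and 12.6 with shALKBH5 and 16.2 with shNC at another. Of the genes of the elongation kinase P-TEFb, CCNT1 had 13.5 with shALKBH5 and 29.7 with shNC. CDK9 had 9.39 with shALKBH5 and 3.78 with shNC at 1 place, and its highest shNC fold of 21.4 was at a peak without a partner (log10 p -5.55). The CDK9 peak strongest by p in both lists had 8.13 (log10 p -248) with shALKBH5 and 9.1 (log10 p -309) with shNC. Of 16 genes for turnover of the MYC protein, 14 had peaks, all in both lists. FBXW7, the ubiquitin ligase subunit that binds phosphorylated MYC, had 21.2 in the shALKBH5 list and 85.3 in the shNC list at 1 place, and 22.2 in the shALKBH5 list and 5.65 in the shNC list at another. These 2 places of FBXW7 were picked by the highest fold in each list, a choice that favours gaps in opposite directions. At the second, log10 p was -11.6 with shALKBH5 and -5.55 with shNC. The remaining places of FBXW7 had 20.5 with shALKBH5 and 17.2 with shNC, and 6.94 with shALKBH5 and 6.54 with shNC. PPP2R5A had 16.0 with shALKBH5 and 14.8 with shNC, and TRIM32 had 11.8 with shALKBH5 and 9.37 with shNC at 1 place. At another place TRIM32 had 2 shALKBH5 peaks with folds of 3.89 and 10.0, which both overlapped its highest shNC peak, with a fold of 17.5. The median fold was 6.61 in the shALKBH5 list and 5.71 in the shNC list for cofactors. For turnover genes it was 5.07 in the shALKBH5 list and 3.52 in the shNC list.

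Of 30 known MYC target genes, 21 had peaks in both lists, 2 in the shALKBH5 list alone and 7 in neither. The 2 were LDHA and HSPD1, with start peaks of fold 3.45 (log10 p -5.96) and 2.84 (log10 p -5.39). The HSPD1 peak was in the weakest quartile of the shALKBH5 list by p, where 54.6% of all peaks had no partner. Processed pseudogenes of LDHA, HSPD1 and CBX3 can share reads with them, which was not tested here, so these peaks are uncertain. The nucleolar genes FBL and RRS1 led in the shALKBH5 list with 24.1 and 19.5, and in the shNC list they had 26.2 and 17.5. NCL, for nucleolin, had its strongest peak by p at the same borders in both lists, with folds of 4.50 in the shALKBH5 list and 4.69 in the shNC list (log10 p -1290 in both). At another place NCL had 2.23 (log10 p -59.6) in the shALKBH5 list and 18.7 (log10 p -20.7) in the shNC list. The genes with no peak included the growth genes NPM1, ODC1, CAD and EIF4E. Target genes had a median fold of 3.45 in the shALKBH5 list and 4.72 in the shNC list. In all 6 groups, the median fold was below that of all peaks of the same list.

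**Figure D4:**
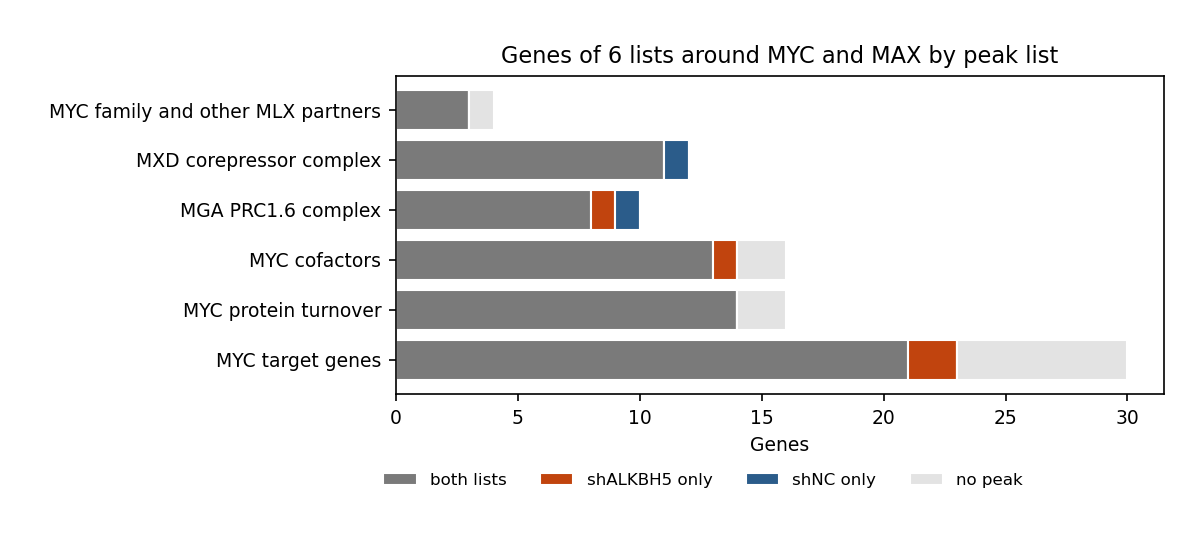
Genes (x axis, number) of 6 lists around MYC and MAX with peaks in both lists, in the shALKBH5 list alone, in the shNC list alone or in no list. Grey bars for both lists take up 70 of 88 genes, and the coloured bars hold 4 genes for shALKBH5 only and 2 for shNC only.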

How the data were processed

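Each condition has 1 list of peaks, deposited by the authors and made from 1 IP and 1 input library per the labels. According to the submitters' processing notes, BWA 0.7.12, HOMER 4.9.1 and fastp 0.19.11 were used with hg38, without a stated role. The sources used here do not name the peak caller. Each row gives, per the file headers, a position, blocks, an Ensembl gene, a symbol and a fold enrichment, which is a ratio of IP over input by the authors. The p-value stands in the deposited column named score. Log10 p-values and log10 FDRs by the authors were handled as scores without a set range. Spreadsheet errors replaced 1 shALKBH5 and 2 shNC values of log10 p, which were ranked as strongest, and 1109 and 1079 values of log10 FDR. Starts were raised by 1 to count from 1.

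Members were found by symbol. Partners were called on blocks, strand ignored, with at least 1 shared base. Positions used RefSeq spans of GRCh38.p14. Quartiles of p were taken within a list. Python 3.11.15, pandas 2.3.3, numpy 2.4.6 and matplotlib 3.10.9 were used, and the partner and position steps gave the right call for 100% of 2000 simulated peaks. Named genes are all members, ALKBH5, genes of the 6 lists with peaks in 1 list only, up to 2 of each list with the highest fold per peak list, and the 3 genes nearest MYC. MLXIP, MLXIPL, HDAC1, NPM1, ODC1, CAD and EIF4E were named after their values were seen. The members and gene lists were chosen with earlier results of these data known. Alternatives were a reciprocal overlap of 50%, a 200 bp window, the same strand, a fold of at least 2 times the lowest of the list, lists of equal length by p, merging of peaks within 100 bp, genes from RefSeq spans and other limits for gene start and end. No value has a replicate, and no test between conditions was run.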

Additional observations from a re-analysis of the deposited data

How the results depend on the processing

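No paired analysis was possible because each condition has 1 IP and 1 input library. The number of network peaks without a partner was 2 in each list. With a reciprocal overlap of 50% it became 6 in the shALKBH5 list and 4 in the shNC list, since the MAX and MGA peaks listed whole in 1 list and in parts in the other no longer counted as partners. With lists of equal length by p, it became 1 in the shALKBH5 list, as the MNT peak fell out of the shortened list, and 3 in the shNC list. That MNT peak ranked 22367 by log10 p, tied with others, and the shortened list kept 22448 peaks. Its loss thus rests on the order among ties. With the stricter fold, at least 2.22 in the shALKBH5 list and 2.24 in the shNC list, the MXD4 start peak and a peak of MXD1 in the shALKBH5 list lost their partners and the MYC peak without a partner was dropped, for a count of 3. MLX then had no peak, and 7 genes had peaks in both lists. That fold also left 7 genes of the 6 lists with peaks only in the shALKBH5 list, in place of 4, and 7 only in the shNC list, in place of 2. With 2000 bp in place of 1000 bp for the gene end, the number of network peaks at the gene end became 3 in each list, in place of 0. Requiring a partner of the same gene, an alternative added after the data were seen, gave 3 shNC peaks without a partner, with the MXD3 peak over RAB24 as the third. Other alternatives kept each count within 1.5 times its value. Without read counts, a peak that misses the list cannot be told from an unmethylated site.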
